A study of Mus musculus with 12 samples.

Results

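The 39 protein-coding Hox genes of the mouse were examined in MEF cells, fibroblasts isolated from C57BL/6 embryos at embryonic day 13.5 and immortalized by serial passage. The members were every entry whose symbol is Hox, a cluster letter from a to d and a paralog number, which gave 39 of the 43280 entries in the table of the mutant IDH2 experiment and 31 of the 23930 entries in the table of the 2-HG experiment. Of these, 38 and 30 are reported, and all counts of Hox genes refer to them. In the first experiment, 2MUT cells had been selected for a retroviral vector with mutant human IDH2, and Control cells carried the empty vector. In the second, 2-HG(+) cells had received a membrane-permeant form of 2-HG at 300 μM and 2-HG(-) cells had not, both kept for 24 h. The labels give DMSO, the solvent, for the 2-HG(-) cells, whereas the study's text calls them non-treated. Each of the 4 groups had 3 libraries, and no label says that these came from separate cultures, so p-values measure the spread between libraries, which may be technical. The question was which positional Hox code these fibroblasts carry and whether it changes with mutant IDH2 or with 2-HG.

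Hox genes encode homeodomain transcription factors that give cells along the body axis and the limbs their regional identity. They lie in the Hoxa, Hoxb, Hoxc and Hoxd clusters, on chromosomes 6, 11, 15 and 2 of GRCm38. Within a cluster the order of the genes follows their expression domains, low paralog numbers lying at the 3′ end and being active towards the head, high numbers lying at the 5′ end and being active towards the tail and the limb tips. Fibroblasts are known to keep the Hox pattern of the body site they were taken from through many passages in culture. Polycomb complexes hold the silent members off, and of these PRC2 deposits H3K27 methylation. 2-HG inhibits dioxygenases that use α-ketoglutarate, among them histone demethylases.

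The levels are RPM, reads on a gene per 1000000 reads on all genes, from Ion AmpliSeq libraries in which 1 short target of each transcript is amplified. A level therefore depends on the target, and the order of levels between genes is only a rough guide. Reads on genes numbered 6472439 to 7313602 in a library of the mutant IDH2 experiment and 14959318 to 18363768 in a library of the 2-HG experiment, so that 3 reads were worth 0.41 to 0.464 RPM and 0.163 to 0.201 RPM, and intervals from reads cover counting error only. The mouse Idh2 entry, the endogenous counterpart of the transgene, was lower in 2MUT (49.6 ± 6.39 RPM, SD, n = 3) than in Control (77.3 ± 5.54 RPM). Whether its target also reads the human cDNA was not tested, so it is no check of the transgene. Of the fibroblast markers, 9 of 10 and 9 of 9 listed stood at 1 RPM or more in the tables of the mutant IDH2 and the 2-HG experiment, S100a4 being the exception at 0.143 RPM. None of 6 epithelial markers reached 1 RPM in either table, with Epcam and Krt18 at 0 in all libraries. Of 4 muscle markers, Des alone was above 1 RPM (means of 1.75 and 2.52 RPM), Myod1 and Pax7 were at 0 and Myog had 1 read. Of the lists for other cell types, 1 of 5 endothelial, 1 of 4 blood and macrophage, 2 of 5 neural and 1 of 3 cartilage markers reached 1 RPM in the first table and 0 of 5, 2 of 5, 1 of 5 and 1 of 3 in the second. The cartilage marker above 1 RPM was Sox9, which was called lower in 2MUT (297 ± 33.9 to 186 ± 32.2 RPM, SD, n = 3; log2 fold change -0.68, limma adjusted p = 0.0025), with Acan at 0 in all libraries, and the macrophage marker Cd68 was called lower in 2-HG(+) (12.4 ± 1.25 to 8.46 ± 1.01 RPM, -0.51, limma adjusted p = 0.021), a call lost without 2-HG(+) replicate 2 or 2-HG(-) replicate 1 or 2. Their part in the Hox values was not tested. The summed fibroblast markers were 14460 to 16437 RPM in Control and 13042 to 13489 RPM in 2MUT, and were 21641 to 23282 RPM in 2-HG(-) and 15273 to 16292 RPM in 2-HG(+). In the 2-HG experiment the sums rested mostly on Col1a1 (8624 to 6864 RPM) and Col1a2 (8653 to 4916 RPM), and Col1a1, Vim, Fn1 and Fbn1 were not called. Of the 9 fibroblast markers tested, 6 were called lower and 1 higher in 2MUT, where 17.3% and 16.5% of all genes were. In 2-HG(+), 4 markers were called lower and 1 higher, where 16.7% and 16.1% of all genes were. The higher ones were Fn1 in 2MUT (3967 ± 478 to 5329 ± 535 RPM, SD, n = 3; log2 fold change 0.43, limma adjusted p = 0.011), a call lost without 2MUT replicate 3, and Thy1 in 2-HG(+) (2.76 ± 0.209 to 5.23 ± 1.43 RPM, 0.71, limma adjusted p = 0.014). In bulk RNA, fewer cells of a kind and less RNA per cell cannot be told apart.

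The Hox code detected in these cells lay in the Hoxb cluster and in part of Hoxa, with no gene of Hoxc or Hoxd at a mean of 1 RPM. A gene was counted as expressed at a mean of 1 RPM or more over the 6 libraries of its table. In the mutant IDH2 experiment, 9 of 38 genes were expressed, 6 of 10 in Hoxb and 3 of 10 in Hoxa, against 0 of 9 in Hoxc and 0 of 9 in Hoxd. The Hoxb members were Hoxb2 (93.6 RPM, mean of 6), Hoxb3 (16.5 RPM), Hoxb4 (72.1 RPM), Hoxb6 (15.6 RPM), Hoxb8 (5.64 RPM) and Hoxb9 (3.54 RPM). The Hoxa members were Hoxa4 (1.83 RPM), Hoxa6 (8.18 RPM) and Hoxa10 (10.9 RPM). Hoxa10 thus had the highest paralog number among the expressed genes, and paralogs 11 to 13, which pattern the limb ends and the tail region, had no member at 1 RPM.

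In the 2-HG experiment, 4 of 30 listed genes were expressed, all of paralogs 2 to 6. They were Hoxb2 (31.5 RPM, mean of 6), Hoxb4 (10.4 RPM), Hoxb3 (2.21 RPM) and Hoxa6 (2.73 RPM), which made 3 of 9 listed Hoxb genes and 1 of 7 listed Hoxa genes. None of the 8 listed Hoxc genes or the 6 listed Hoxd genes reached 1 RPM. All 4 were among the 9 expressed in the mutant IDH2 experiment.

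**Figure D1:**
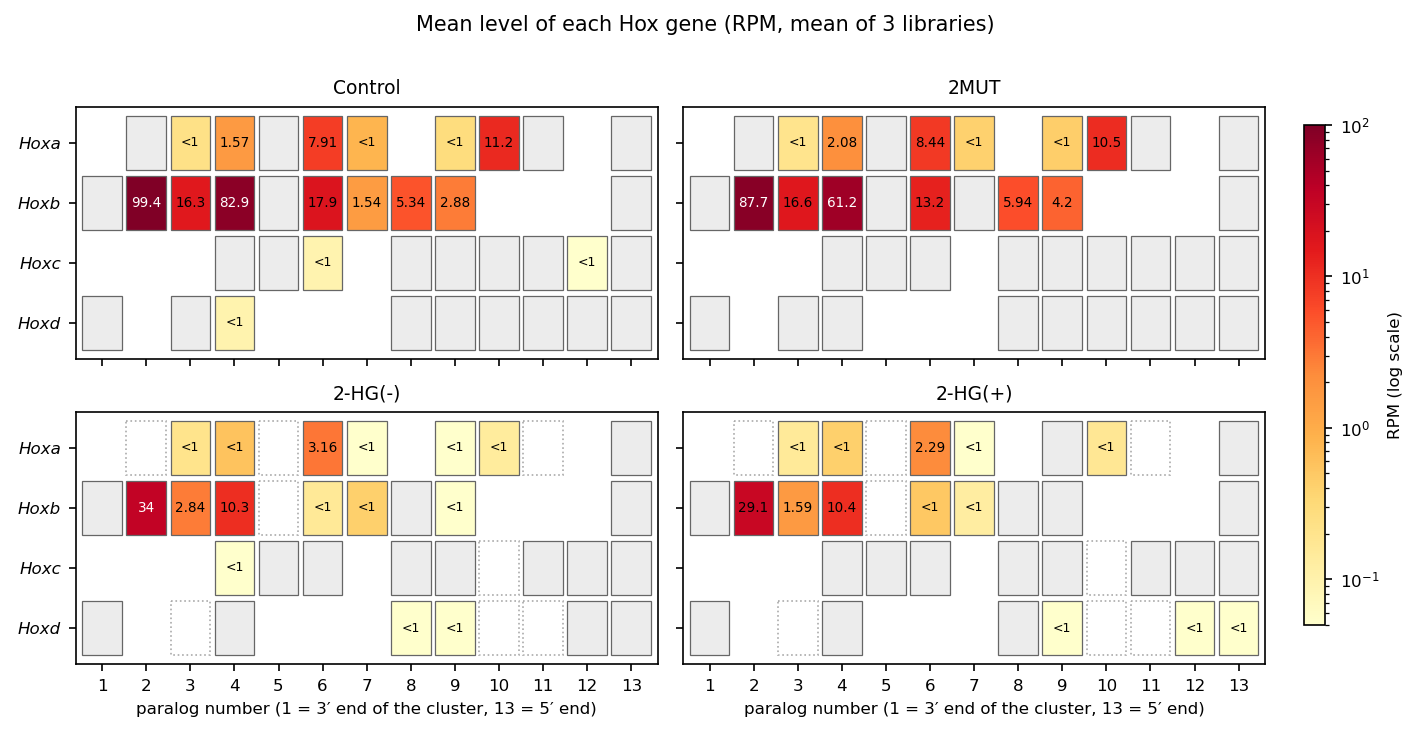
Mean level of each Hox gene in RPM (mean of 3 libraries; the colour scale is logarithmic) by cluster and paralog number in Control, 2MUT, 2-HG(-) and 2-HG(+). Grey boxes had no read, dotted boxes are genes not listed in that table, empty places show no gene, and "<1" marks reads below 1 RPM; colour is confined to Hoxa and Hoxb apart from boxes of 1 or 2 reads in a group in Hoxc and Hoxd.

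Members below 1 RPM were few in reads. In the mutant IDH2 experiment, 7 genes had reads but a mean under 1 RPM, and 22 had none. These 7 were Hoxb7 (0.772 RPM), Hoxa7 (0.604 RPM), Hoxa9 (0.359 RPM), Hoxa3 (0.216 RPM), Hoxc6 with 2 reads, Hoxd4 with 2 reads and Hoxc12 with 1 read over all 6 libraries. In the 2-HG experiment, 13 genes had reads below 1 RPM and 13 had none. The former were Hoxa3, Hoxa4, Hoxa7, Hoxa9, Hoxa10, Hoxb6, Hoxb7, Hoxb9, Hoxc4, Hoxd8, Hoxd9, Hoxd12 and Hoxd13, of which Hoxa4 had the highest mean, 0.492 RPM. The highest value in any library among the genes not counted as expressed was 2.14 RPM, for Hoxb7 in Control, and 0.992 RPM, for Hoxb6 in 2-HG(+).

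A listing at 0 did not mean the same for each gene. Hoxa2, Hoxa5, Hoxa11, Hoxb5, Hoxc10, Hoxd3, Hoxd10 and Hoxd11 were listed only in the table of the mutant IDH2 experiment, and all 8 had no read there. That table had 22835 names that the other did not list, and 19875 of them (87.0%) had no read in any of its libraries, against 4819 of the 20418 shared names (23.6%). For these 8 genes the table says only that they are listed at 0, and the gaps at Hoxa5 and Hoxb5 between expressed neighbours are of this kind. Of the genes listed in both tables, Hoxb1, Hoxb13, Hoxa13, Hoxc5, Hoxc8, Hoxc9, Hoxc11, Hoxc13 and Hoxd1 had no read in any of the 12 libraries. Whether the targets of these genes amplify was not tested, so a value at or near 0 does not show that a gene is silent.

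Summed over a cluster, Hoxb carried most of the Hox reads. The Hoxb sum was 230, 223 and 227 RPM in the Control libraries and 199, 194 and 174 RPM in the 2MUT libraries. The groups did not overlap, as was so for 47.5% of all genes tested. Within it, the mean of Hoxb4 fell from 82.9 to 61.2 RPM and that of Hoxb2 from 99.4 to 87.7 RPM. Hoxb6 and Hoxb7 also had lower means, whereas Hoxb3, Hoxb8 and Hoxb9 did not. The Hoxa sum was 17.6, 27.2 and 21.3 RPM in Control and 21, 22.4 and 22.8 RPM in 2MUT, with overlap. In the 2-HG experiment the Hoxb sum was 43.9, 48.7 and 50.5 RPM in 2-HG(-) and 43.9, 37.3 and 44 RPM in 2-HG(+), and the Hoxa sum was 4.57, 3.88 and 3.96 RPM in 2-HG(-) and 3.17, 2.64 and 3.4 RPM in 2-HG(+). The 2-HG groups overlapped narrowly for Hoxb. For Hoxa, where most reads were those of Hoxa6, they did not overlap, as was so for 46.3% of all genes tested. Hoxc had 3 reads in all of Control and 0 in 2MUT, and 2 and 0 in 2-HG(-) and 2-HG(+), while Hoxd had 2 and 0 and then 2 and 4. Hoxb2, Hoxb3 and Hoxb4, the 3′ genes whose domains reach into the hindbrain, made up 87.8% of the Hoxb sum in Control, 87.6% in 2MUT, 98.7% in 2-HG(-) and 98.5% in 2-HG(+). Hoxb2 alone was 43.9%, 46.4%, 71.2% and 69.6% of it in the same order.

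Promoters are printed for 4 members that stand for the range of levels, 250 bases before to 50 bases after the RefSeq start on GRCm38.p6, each 5′ to 3′ on the strand of the gene. Of the 38 genes, 22 matched the RefSeq table with 24 promoters, and Hoxb2 and Hoxb3 were not among them. Hoxb4 was high in both tables and was the expressed member that fell in 2MUT, Hoxa6 was expressed in both at lower levels, Hoxb8 had reads in the mutant IDH2 experiment and none in the 2-HG experiment, and Hoxb1, at the 3′ end of the same cluster, had none in either. They lie at chr11:96318017-96318316 on the plus strand (Hoxb4), chr6:52208623-52208922 on the minus strand (Hoxa6), chr11:96281655-96281954 on the plus strand (Hoxb8) and chr11:96365508-96365807 on the plus strand (Hoxb1). Capitals mark matches on either strand to TGATNNAT (letters of joint Hox and Pbx sites), AGGTCA (the nuclear receptor half-site), CCAAT (the box read by the factor NF-Y), CACGTG (the E-box) and TATAAA (the core of the TATA box).
Hoxb4: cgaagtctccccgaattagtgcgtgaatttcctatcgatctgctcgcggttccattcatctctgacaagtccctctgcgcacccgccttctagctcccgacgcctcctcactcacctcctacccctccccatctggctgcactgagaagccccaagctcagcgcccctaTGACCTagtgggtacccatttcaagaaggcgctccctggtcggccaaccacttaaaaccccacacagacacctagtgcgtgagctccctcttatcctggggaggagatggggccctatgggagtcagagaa
Hoxa6: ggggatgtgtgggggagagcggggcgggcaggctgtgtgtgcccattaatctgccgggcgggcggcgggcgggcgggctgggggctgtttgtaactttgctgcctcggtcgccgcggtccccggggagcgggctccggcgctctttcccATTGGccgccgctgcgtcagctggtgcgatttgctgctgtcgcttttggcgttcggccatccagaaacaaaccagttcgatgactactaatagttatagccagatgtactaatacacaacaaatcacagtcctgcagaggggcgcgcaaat
Hoxb8: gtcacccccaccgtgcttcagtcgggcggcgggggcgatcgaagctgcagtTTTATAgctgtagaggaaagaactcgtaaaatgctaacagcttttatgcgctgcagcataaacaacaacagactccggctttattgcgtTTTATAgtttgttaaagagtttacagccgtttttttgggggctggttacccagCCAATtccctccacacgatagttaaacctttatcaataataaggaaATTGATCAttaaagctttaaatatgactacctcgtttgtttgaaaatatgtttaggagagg
Hoxb1: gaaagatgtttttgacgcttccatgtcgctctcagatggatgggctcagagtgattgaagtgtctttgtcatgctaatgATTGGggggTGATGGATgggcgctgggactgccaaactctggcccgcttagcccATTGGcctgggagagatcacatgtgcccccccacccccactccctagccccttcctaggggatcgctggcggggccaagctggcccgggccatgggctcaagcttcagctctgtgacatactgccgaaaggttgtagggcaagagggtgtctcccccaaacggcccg

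The 4 promoters differed in their motifs and CG pairs. The Hoxb4 promoter held 1 AGGTCA match and 14 CG pairs, and the Hoxa6 promoter 1 CCAAT match and 26 CG pairs. The Hoxb8 promoter held 2 matches to TATAAA, 1 to CCAAT and 1 to TGATNNAT with 13 CG pairs, and the Hoxb1 promoter 2 matches to CCAAT and 1 to TGATNNAT with 10 CG pairs. Over the 24 Hox promoters the median was 14.5 CG pairs, against 7 over all 32851 promoters of the table. TGATNNAT was found in 16.7% of Hox promoters and 8.85% of all, AGGTCA in 29.2% and 16.3%, CCAAT in 62.5% and 37.4%, CACGTG in 20.8% and 7.15%, and TATAAA in 16.7% and 13.6%. In the 4 printed promoters no match overlapped another. These are matches of letters, and no binding was measured.

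The first comparison asked whether Hox expression changes with mutant IDH2. Hoxb4, which acts in hindbrain and neck patterning and in blood stem cells, fell in 2MUT, and none of the other 8 expressed Hox genes passed the test. Values were compared as log2(RPM + 1) with limma, which understates the change of low genes, and p-values were adjusted by Benjamini-Hochberg over all 11065 genes with a mean of 1 RPM or more. So 1 of 9 expressed Hox genes (11.1%) was called lower and 0 higher, where 33.8% of all genes tested were called in either direction, 17.3% lower and 16.5% higher. The share of Hox genes called was below the background share, and no test compared them. The median log2 fold change of the 9 genes was 0.04, against 0.01 for all genes, and none of the 9 moved by more than 0.43 in size. Hoxb7, under the filter, is given further on. At an unadjusted p under 0.05 the count of higher Hox genes was still 0, and edgeR and DESeq2 on the recovered reads gave 0 as well.

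Hoxb4 stood at 78.3, 86.9 and 83.7 RPM in the Control libraries and at 64.7, 58.9 and 60.1 RPM in the 2MUT libraries. The 3 2MUT libraries all lay below the 3 Control libraries. Its log2 fold change was -0.43 ± 0.11 (SE; 95% interval -0.67 to -0.2; limma, Benjamini-Hochberg adjusted p = 0.0097). The call held in 17 of 17 alternative analyses, with log2 fold changes from -0.47 to -0.4 and adjusted p from 0.0028 to 0.045. Among annotated transcripts the longest identical stretch that Hoxb4 shares with another Hox gene is 52 bases, in Hoxa6, and the position of the AmpliSeq targets was not used here.

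Groups did not overlap for 2 further expressed Hox genes, where 47.5% of all genes tested had groups that did not overlap. Hoxb6, a gene of the trunk and the limb bud, had 18.6, 18.5 and 16.7 RPM in Control and 15.3, 12.7 and 11.7 RPM in 2MUT. All 2MUT libraries were below all Control libraries, but the log2 fold change of -0.42 (95% interval -0.77 to -0.06) missed the threshold (limma adjusted p = 0.067, and 0.054 to 0.21 over the alternatives). Hoxb9, a trunk gene at the 5′ side of the cluster, had 2.96, 2.14 and 3.56 RPM in Control and 4.79, 4.25 and 3.58 RPM in 2MUT. Here the 2MUT libraries were the higher ones, the closest pair differing by little, with a log2 fold change of 0.43 (95% interval -0.07 to 0.93; limma adjusted p = 0.17).

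The other expressed members had overlapping groups and wide intervals. Hoxb2, which patterns the hindbrain, had 113, 88.5 and 97.1 RPM in Control and 92.1, 93.6 and 77.5 RPM in 2MUT, a log2 fold change of -0.18 (95% interval -0.45 to 0.1). Hoxb3, its neighbour, had 12.4, 19.1 and 17.5 RPM against 16.1, 17.4 and 16.4 RPM, a log2 fold change of 0.04 (95% interval -0.35 to 0.44). A fall of Hoxb3 as large as that of Hoxb4 lay outside its interval. Hoxa10, which acts in the reproductive tract and the proximal limb, had 8.88, 13.1 and 11.8 RPM against 6.33, 12.4 and 12.8 RPM, a log2 fold change of -0.13 (95% interval -0.69 to 0.43). For Hoxa10 the spread within a group was larger than the difference between the groups. Log2 fold changes of Hoxa4, Hoxa6 and Hoxb8 were 0.25, 0.09 and 0.13, and their 95% intervals all included 0.

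**Figure D2:**
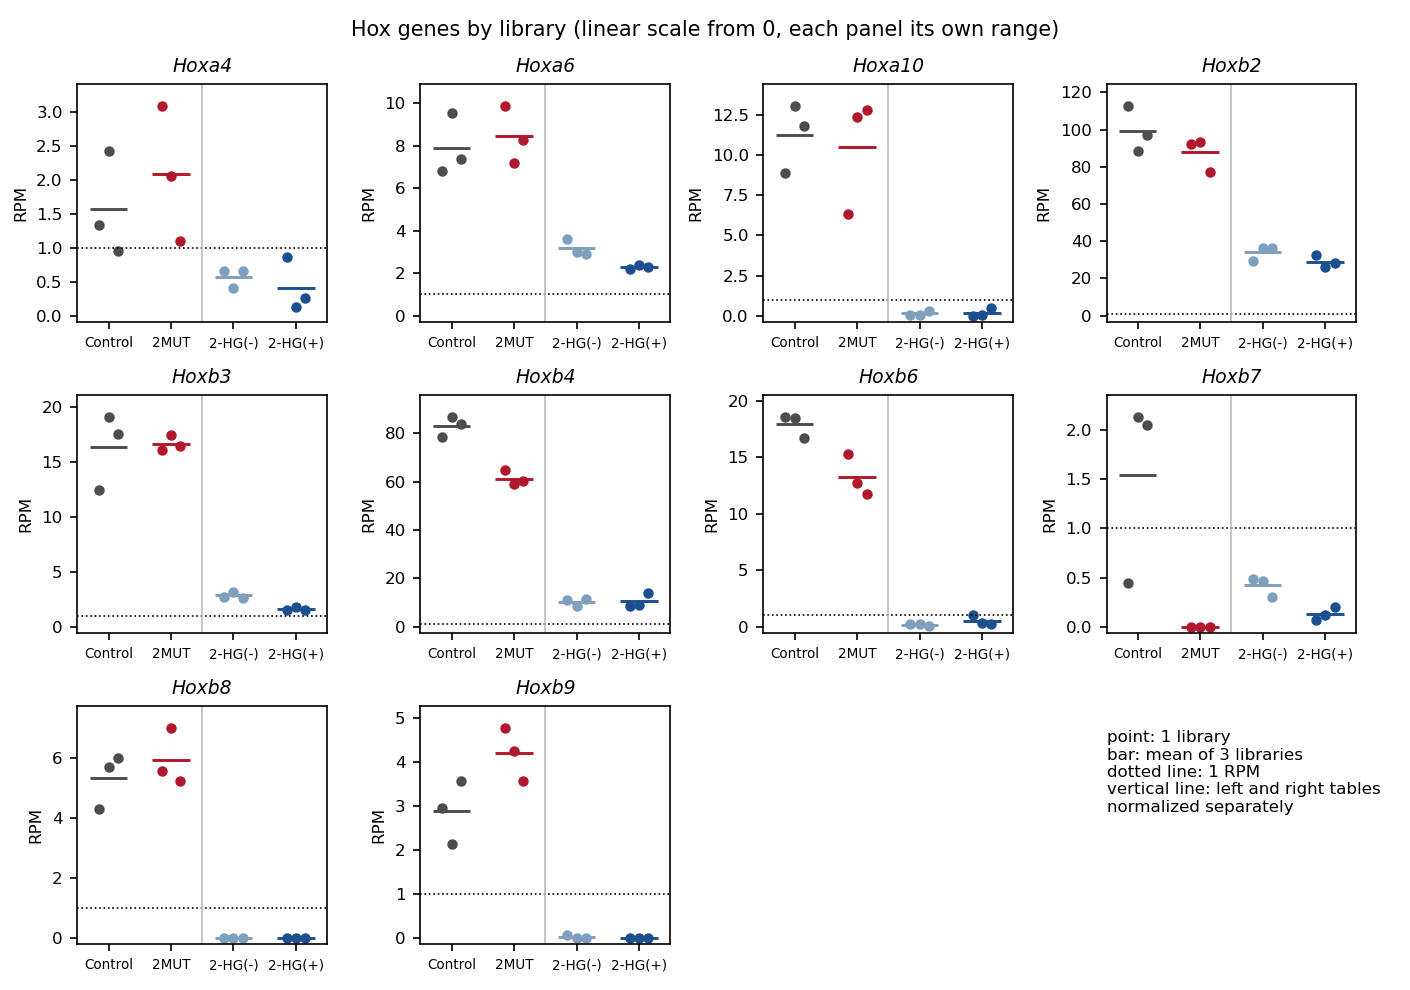
RPM of 10 Hox genes in each library of Control, 2MUT, 2-HG(-) and 2-HG(+), as points, with the mean of 3 libraries as a bar; each panel has its own linear scale from 0, and the dotted line is 1 RPM. Hoxb4 is lower in all 3 2MUT libraries (58.9 to 64.7 RPM) than in Control (78.3 to 86.9 RPM), Hoxb3 is lower in all 3 2-HG(+) libraries than in 2-HG(-), and Hoxb7 has no read in 2MUT.

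Hoxb7, which lies between Hoxb6 and Hoxb8, had too low a mean for the test above, and its reads were all in Control. It had 3, 15 and 15 reads in the Control libraries, or 0.444, 2.14 and 2.05 RPM, and 0 reads in each of the 2MUT libraries. Hoxb7 had 33 of 21092049 reads in Control and 0 of 20570182 in 2MUT. The level over all Control reads was 10.7-fold a limit of 3 reads over the 3 2MUT libraries (0.146 RPM). This ratio leaves out counting error and the spread between libraries in Control, so it is no lower bound of the change. Without the filter on low genes, Hoxb7 was called by limma (Benjamini-Hochberg adjusted p = 0.0084) and by edgeR on recovered reads (adjusted p = 1.6e-05), the latter chosen after seeing the data. It was the only 1 of the 7 low Hox genes called by either tool, where 18.4% and 22.4% of all genes were called without the filter. Control replicate 1 had fewer reads of it than the other Control libraries. The longest stretch identical to another Hox gene is 37 bases, in Hoxb6, whose reads stood in all 2MUT libraries.

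The second comparison asked the same of 2-HG itself. Hoxb3 fell in 2-HG(+), and none of the other 3 expressed Hox genes passed the test. Of the 4 expressed Hox genes, 1 (25.0%) was called lower and 0 higher, where 32.8% of the 10384 genes tested were called in either direction, 16.7% lower and 16.1% higher. The median log2 fold change of the 4 genes was -0.28, against -0.02 for all genes. The count of higher Hox genes was also 0 at an unadjusted p under 0.05 and with edgeR and DESeq2 on the recovered reads.

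Hoxb3 had 2.72, 3.14 and 2.64 RPM in 2-HG(-) and 1.52, 1.74 and 1.5 RPM in 2-HG(+), from 141 and 75 reads in all. The groups were well apart, with low spread in each (2.84 ± 0.268 and 1.59 ± 0.135 RPM, SD, n = 3). The log2 fold change was -0.57 ± 0.14 (SE; 95% interval -0.88 to -0.25; limma, Benjamini-Hochberg adjusted p = 0.013). It was called in 15 of 16 alternatives (adjusted p 0.014 to 0.066), the exception being quantile normalization (log2 fold change -0.38, adjusted p = 0.066), and at a filter of 10 RPM it was not tested. On the recovered reads, with no value added, edgeR gave -0.82. The antisense transcript Hoxb3os shares 2250 of the 4251 exon bases of Hoxb3 and 953 of the 3488 of Hoxb2, it is listed only in the table of the mutant IDH2 experiment, and whether counting used the strand is not given in the sources used here, so reads from the shared bases cannot be assigned to either transcript.

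Hoxa6, a thoracic gene, also had groups that did not overlap, as did 46.3% of all genes tested. It had 3.59, 3.01 and 2.88 RPM in 2-HG(-) and 2.18, 2.4 and 2.29 RPM in 2-HG(+). All 2-HG(+) libraries were lower, with a log2 fold change of -0.34 (95% interval -0.65 to -0.02) that missed the threshold (limma adjusted p = 0.1, and 0.058 to 0.39 over the alternatives). Hoxb4 had 11.1, 8.42 and 11.3 RPM against 8.73, 8.9 and 13.7 RPM, with a log2 fold change of 0.0 and a 95% interval of -0.43 to 0.43. Hoxb2 had 29.4, 36.5 and 36.1 RPM against 32.6, 26.3 and 28.4 RPM, a log2 fold change of -0.22 (95% interval -0.51 to 0.08). The groups of Hoxb4 and of Hoxb2 overlapped.

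Among the low genes of the 2-HG experiment, Hoxb7 and Hoxb6 had groups that did not overlap, from few reads. They were 2 of 13 low Hox genes, where 8.81% of the 7766 genes with reads and a mean under 1 RPM had groups that did not overlap. Hoxb7 had 9, 7 and 5 reads in 2-HG(-) and 1, 2 and 3 in 2-HG(+), or 0.3 to 0.49 RPM against 0.066 to 0.196 RPM. The ratio of the groups was 3.3 lower in 2-HG(+), with an exact 95% counting interval of 1.29 to 9.98. Without the filter, limma called it (log2 fold change -0.33, adjusted p = 0.015, where 17.6% of all genes were called) and edgeR did not (adjusted p = 0.14, where 22.6% were). It was the only 1 of 13 low Hox genes that limma called, and edgeR called 0 of them with 2, Hoxb6 and Hoxb7, at an unadjusted p under 0.05. Hoxb6 had 4, 3 and 1 reads in 2-HG(-) and 15, 5 and 4 in 2-HG(+), and was called neither by limma (adjusted p = 0.17) nor by edgeR (adjusted p = 0.084).

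**Figure D3:**
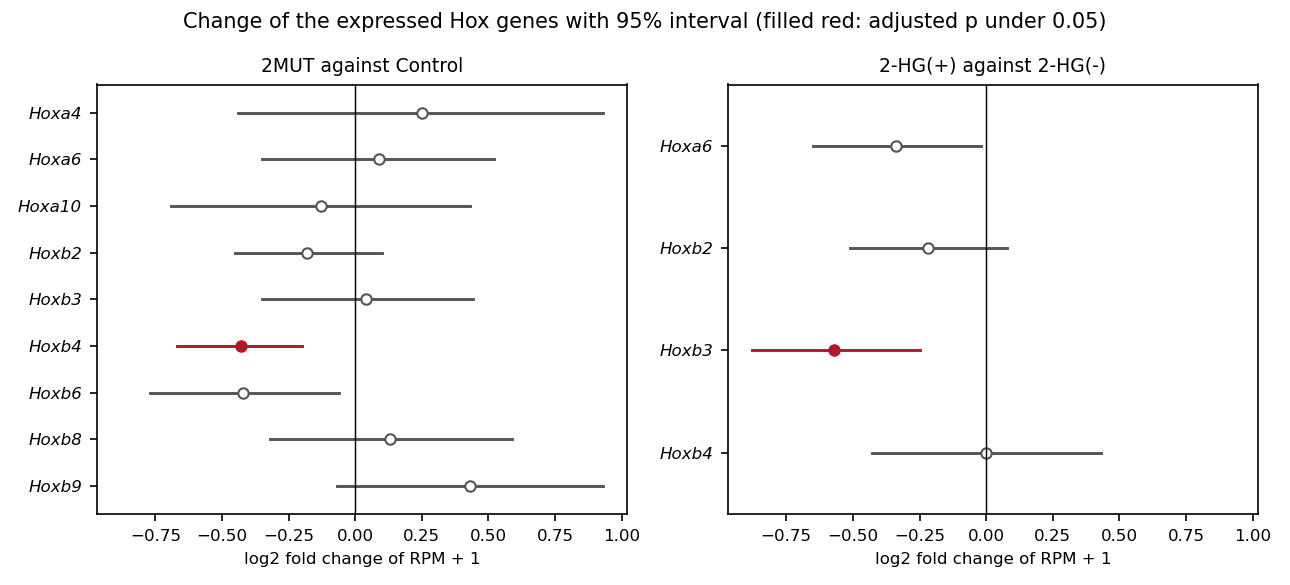
Log2 fold change of RPM + 1 for each expressed Hox gene with its 95% interval from limma, for 2MUT against Control (9 genes) and 2-HG(+) against 2-HG(-) (4 genes); filled red points have a Benjamini-Hochberg adjusted p under 0.05. Hoxb4 is the red point on the left at -0.43 and Hoxb3 the red point on the right at -0.57, and all other points are open.

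The changes themselves were compared between the experiments for the 4 genes expressed in both, by a limma contrast over all 12 libraries and 9594 genes, of which 39.4% were called. The change of Hoxb3 was 0.04 with mutant IDH2 and -0.57 with 2-HG, a difference of 0.61 (95% interval 0.12 to 1.1; limma, Benjamini-Hochberg adjusted p = 0.049). This call was at the threshold and held in 6 of 19 alternatives (adjusted p 0.024 to 0.14). Among the 12 analyses that left out 1 library it was lost without Control replicate 1, without any 1 of the 3 2MUT libraries and without any 1 of the 6 libraries of the 2-HG experiment, the value staying between 0.44 and 0.73. The change of Hoxb4 was -0.43 and 0.0, a difference of -0.43 whose 95% interval of -0.92 to 0.06 included 0 (limma adjusted p = 0.15). So the fall of Hoxb4 was not shown to be particular to mutant IDH2. For Hoxa6 and Hoxb2 the differences were 0.42 and 0.04, with adjusted p of 0.18 and 0.88 in the same limma test.

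The untreated arms of the experiments differed in their Hox levels, which is set out as a description because the tables were normalized separately. All 9 Hox genes expressed in the mutant IDH2 experiment had lower means in 2-HG(-) than in Control. Hoxb6 stood at 17.9 RPM in Control and 0.16 RPM in 2-HG(-), Hoxa10 at 11.2 and 0.14 RPM, Hoxb8 at 5.34 and 0 RPM, and Hoxb9 at 2.88 and 0.018 RPM. Of the 3′ genes, Hoxb2 was at 99.4 and 34 RPM, Hoxb3 was at 16.3 and 2.84 RPM and Hoxb4 at 82.9 and 10.3 RPM. On the log2(RPM + 1) scale the differences ran from 0.71 for Hoxa4 to 4.03 for Hoxb6. Over the 10366 shared names at 1 RPM or more in the first table the median was 0.28, the lower decile -1.98 and the upper decile 1.63. Of those names, 7.45% were under 1 RPM in the 2-HG table, against 5 of the 9 Hox genes (55.6%), Hoxa4, Hoxa10, Hoxb6, Hoxb8 and Hoxb9. The 9 genes and the 10366 names were both picked by their level in the first table, which favours lower values in the second. They were not matched for level. Experiment, vector and any difference in targets or between cultures cannot be told apart here. Genes outside the clusters also stood far apart, some of them higher in 2-HG(-). Among these, Bmi1 was at 1.19 RPM in Control and 60 RPM in 2-HG(-), and Suz12 at 9.27 and 131 RPM. The 2-HG(-) libraries were the deeper ones, and Hoxb8 had 113 reads in the Control libraries and 0 in the 2-HG(-) libraries, Hoxb6 378 and 8.

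The partners and regulators of Hox genes were described from lists of known genes. TALE homeodomain proteins of the Pbx, Meis and Pknox families bind DNA together with Hox proteins. In 2MUT, 2 of 8 expressed TALE genes were called lower and 0 higher, against 33.8% of all genes in either direction. Pknox1 went from 18.6 ± 3.07 to 12.5 ± 2.52 RPM (SD, n = 3; log2 fold change -0.54) and Pbx2 from 98 ± 10.5 to 76.2 ± 1.88 RPM (-0.35). Both calls were near the threshold, Pknox1 holding in 8 and Pbx2 in 11 of 17 alternatives. Pknox1 was lost without 2MUT replicate 2 or 3 or Control replicate 1 or 3, and Pbx2 without any 2MUT library or without Control replicate 1 or 2. In 2-HG(+), 1 of 6 was called lower and 0 higher, where 16.7% of all genes were called lower. No TALE gene was higher in either comparison at an unadjusted p under 0.05 or with edgeR or DESeq2. The gene called in 2-HG(+) was Pbx3, which fell from 50.8, 44.8 and 52.4 RPM to 19.1, 20.4 and 26.1 RPM (log2 fold change -1.15 ± 0.14, SE; limma adjusted p = 0.00026), with no library of one group in the range of the other.

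Polycomb genes were called in both directions. In 2MUT, 4 of 27 expressed members were called higher and 2 lower, and in 2-HG(+) 6 of 27 higher and 2 lower, with medians of 0.0 and 0.04. That made 22.2% and 29.6% of the list called in either direction, where 33.8% and 32.8% of all genes were. In one direction, 16.5% of all genes were called higher and 17.3% lower in 2MUT, and 16.1% higher and 16.7% lower in 2-HG(+). Pcgf5, a subunit of a variant PRC1 complex, rose from 5.2 ± 0.608 to 14.9 ± 3.1 RPM in 2MUT (log2 fold change 1.34) and from 5.03 ± 0.79 to 12.9 ± 1.77 RPM in 2-HG(+) (1.2). Phf19, an accessory PRC2 subunit that reads H3K36 methylation, fell from 7.83 ± 0.619 to 1.45 ± 0.175 RPM in 2MUT (-1.85) and rose from 7.25 ± 0.642 to 13.6 ± 1.65 RPM in 2-HG(+) (0.82). Ezh2, the H3K27 methyltransferase, fell from 18.2 ± 2.17 to 10.4 ± 1.69 RPM in 2MUT (-0.77) and rose from 22.1 ± 1.42 to 32.1 ± 6.14 RPM in 2-HG(+) (0.5, limma adjusted p = 0.03), the latter call being lost without 2-HG(+) replicate 2 or 3 or any 2-HG(-) library. Mtf2, another accessory PRC2 subunit, was called higher in 2MUT (0.65), and this call was lost without 2MUT replicate 1 or 3 or any Control library. In 2-HG(+), Phf1, also an accessory PRC2 subunit, fell from 17.3 ± 0.403 to 9.08 ± 1.97 RPM (-0.88), and Cbx7, a PRC1 subunit that binds H3K27 methylation, from 5.45 ± 1 to 2.86 ± 0.872 RPM (-0.75), a call lost without 2-HG(-) replicate 1 or 3.

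Trithorax group genes, whose MLL complexes keep Hox genes active, were listed with the H3K27 demethylases. In each comparison 3 of 12 expressed members were called higher and 1 lower, 33.3% of the list in either direction, where 33.8% and 32.8% of all genes were called. In 2MUT, the methyltransferases Kmt2a (55.6 ± 11.6 to 103 ± 8.75 RPM, log2 fold change 0.89), Kmt2c (89 ± 15.4 to 159 ± 19 RPM, 0.84) and Kmt2d (164 ± 14.8 to 227 ± 4.6 RPM, 0.47) rose and the core subunit Dpy30 fell (43.9 ± 11.1 to 26.5 ± 1.02 RPM, -0.68). In 2-HG(+), Dpy30 (163 ± 14.3 to 246 ± 16.6 RPM, 0.6) and Wdr5 (44.1 ± 2.33 to 64.7 ± 4.93 RPM, 0.54), both core subunits, and Paxip1 (0.42) were called higher and Kmt2a lower (49.1 ± 2.92 to 36.4 ± 1.8 RPM, -0.42). The call of Kmt2a in 2-HG(+) was lost without 2-HG(+) replicate 2, and that of Paxip1 without 2-HG(+) replicate 1 or 2 or 2-HG(-) replicate 1 or 3. The H3K27 demethylases Kdm6a and Kdm6b passed the test in neither comparison.

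Retinoic acid and the Cdx factors set the borders of Hox expression in the embryo. None of the retinaldehyde dehydrogenases Aldh1a1, Aldh1a2 and Aldh1a3 and none of Cdx1, Cdx2 and Cdx4 reached 1 RPM as a mean of the 6 libraries of either table. Aldh1a1 had 1, 4 and 0 reads in Control and 6, 7 and 10 in 2MUT, a mean of 1.11 RPM in the latter group, and was not tested. Of 7 expressed members, 2 were called lower in 2MUT and 1 in 2-HG(+), with 0 higher in both, where 17.3% and 16.7% of all genes were called lower. At an unadjusted p under 0.05, 1 and 2 of them were higher, and in 2-HG(+) edgeR called 1 higher and DESeq2 2, where both called 0 in 2MUT. Crabp2, which carries retinoic acid to its receptors, fell from 4.93 ± 0.467 to 1.13 ± 0.407 RPM in 2MUT (log2 fold change -1.49). The receptors Rarg in 2MUT (-0.47) and Rxra in 2-HG(+) (-0.36) were called lower, Rarg's call being lost without 2MUT replicate 1 or 2 or Control replicate 1 or 3, and Rxra's without 2-HG(+) replicate 2 or 3 or 2-HG(-) replicate 3.

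Other transcription factors mark body position without being Hox genes. Tbx5, which marks the forelimb, was expressed in both experiments, whereas Tbx4 and Pitx1, which mark the hindlimb, stayed under 1 RPM in both, at means of 0.287 and 0.239 RPM in the mutant IDH2 table and with no read in the 2-HG table. In 2MUT, 5 of 20 expressed members were called higher and 5 lower, where 16.5% and 17.3% of all genes were. Osr1, a factor of lateral and intermediate mesoderm, fell from 104 ± 10.8 to 42.8 ± 4.39 RPM (log2 fold change -1.26), while Dlx6 (6.14 ± 1.13 to 12.9 ± 0.855 RPM, 0.97), a branchial arch and limb factor, and Prrx2 (89.6 ± 11.2 to 133 ± 10.3 RPM, 0.57), a mesenchymal homeobox gene, rose. Gli3, a mediator of hedgehog signalling in the limb, was called higher (0.77) with overlapping groups, and the call was lost without 2MUT replicate 2 or 3 or Control replicate 1 or 2.

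In 2-HG(+), 8 of 19 expressed positional factors were called lower and 0 higher, where 16.7% of all genes were called lower. The higher count was also 0 at an unadjusted p under 0.05 and with edgeR and DESeq2. Prrx2 fell from 96.4 ± 10.6 to 42.3 ± 7.37 RPM (-1.18), the opposite sign to its change in 2MUT, Tbx18, a factor of somites and limb mesenchyme, from 35.4 ± 4.39 to 17.7 ± 2.32 RPM (-0.96), and Foxf2, a mesenchymal forkhead factor, from 13.5 ± 1.72 to 8.22 ± 1.25 RPM (-0.66). Foxf2 was called higher in 2MUT (90.2 ± 5.93 to 130 ± 7.87 RPM, 0.52), and Gli3, called higher there, was called lower in 2-HG(+) (66.2 ± 10.3 to 44.6 ± 5.78 RPM, -0.56), a call lost without 2-HG(-) replicate 1. These changes of Foxf2 and Gli3, and that of Ezh2 in 2-HG(+), were added after their values were seen. Tbx5 fell from 77.4, 82.9 and 80.5 RPM to 57.3, 52 and 51.4 RPM (-0.58; limma adjusted p = 0.0017). It was also called lower in 2MUT, from 202 ± 24.4 to 149 ± 13.8 RPM (-0.43; limma adjusted p = 0.013), which was looked up after its values were seen and was lost without 2MUT replicate 3. Tbx18 was likewise called lower in 2MUT (23.4 ± 2.5 to 16.6 ± 0.628 RPM, -0.47; limma adjusted p = 0.03). Osr1, lower in 2MUT, was called lower in 2-HG(+) as well (25 ± 1.83 to 17.9 ± 2.19 RPM, -0.47; limma adjusted p = 0.02). These calls were added after their values were seen, and the alternatives were not examined for them. The summed fibroblast markers were lower in 2-HG(+) too, with 4 of 9 called lower, 1 higher and 4 not called. Their part in the changes of the positional factors was not tested.

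**Figure D4:**
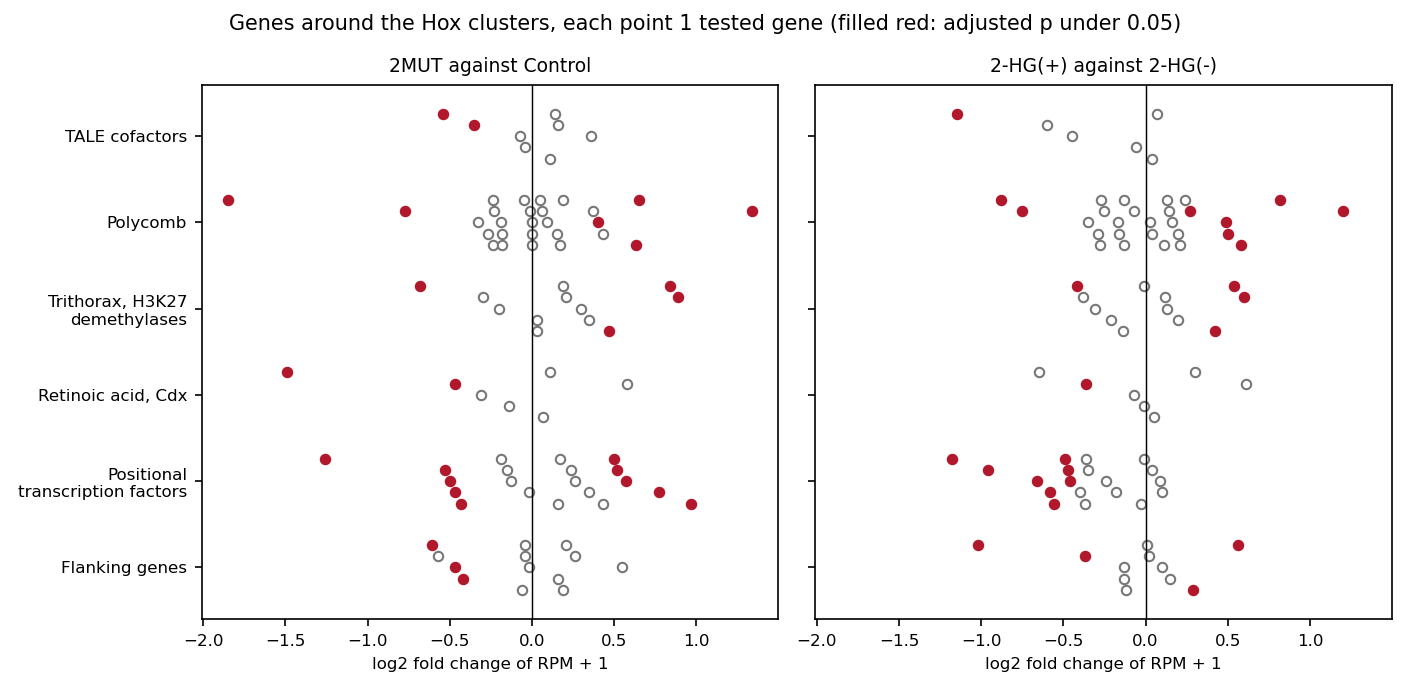
Log2 fold change of RPM + 1 of each tested gene of 6 lists around the Hox clusters, for 2MUT against Control and 2-HG(+) against 2-HG(-); filled red points have a Benjamini-Hochberg adjusted p under 0.05 in limma, and the vertical spread within a list only separates the points. Positional transcription factors called in 2-HG(+) all lie to the left of 0 (8 of 19), whereas those called in 2MUT lie on both sides (5 and 5 of 20).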

How the data were processed

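The authors amplified the targets with an Ion AmpliSeq mouse transcriptome kit, sequenced them on an Ion Proton, aligned the reads with TMAP and used the AmpliSeqRNA plug-in for counts per gene; the authors deposited RPM, 1 table for each experiment. All values were whole multiples of 1 read within 0.05, so whole reads were recovered. In each table, 27 symbols read as dates. Columns without a sample numbered 0. Groups came from the labels. The test was limma 3.58.1 (R 4.3.3), with a trend of variance on level, applied to log2(RPM + 1) of genes averaging 1 RPM or more in the 6 libraries of a table, with Benjamini-Hochberg adjustment at 0.05, each table alone. Intervals are 95%. The members and all gene lists were chosen with earlier results of these data known. Values in every library are given for members at 10 RPM or more in the higher group that were called and for members whose groups did not overlap, and of each list up to 4 called genes with the largest change. The per-library values of Hoxa10 and Hoxb2, and of Hoxb3 and Hoxb4 where not called, were added after they were seen.

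Alternatives were no filter, a filter at 10 RPM, an added value of 0.1, TMM, median-of-ratios and quantile scaling, an unmoderated test, a replicate block, each library left out, and edgeR 4.0.16 and DESeq2 1.42.0 on recovered reads. The scripts were tested on simulated data. Gene positions and overlaps are from GENCODE M21 on GRCm38, promoters from RefSeq on GRCm38.p6. Summaries used pandas 2.3.3 and scipy 1.17.1, and figures matplotlib 3.10.9. The PCR, protein and human cell experiments were not analysed here. A few genes of the Hox clusters and the lists are not reported here, and counts leave them out, while the fits and adjusted p-values cover all genes.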

Additional observations from a re-analysis of the deposited data

Results flagged for a closer look

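The change of Hoxb3 differed between the experiments by a test of the difference itself, at the threshold, where 39.4% of all genes tested differed. It was 0.61 higher on the log2(RPM + 1) scale with mutant IDH2 than with 2-HG (limma, Benjamini-Hochberg adjusted p = 0.049), Hoxb3 being lower in 3 of 3 2-HG(+) libraries than in any 2-HG(-) library and overlapping between Control and 2MUT. The adjusted p ran from 0.024 to 0.14 over the alternatives, and the call held in 6 of 19 of them. It was lost with the replicate block (0.068), without the filter (0.072), under quantile normalization (0.14) and in 10 of the 12 analyses that left out 1 library.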

How the results depend on the processing

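The counts of 1 lower and 0 higher Hox genes in each comparison held without any 1 library. Without the filter the lower count was 2 in both, Hoxb7 being added, and 2 in 2MUT with edgeR and no filter, an alternative chosen after seeing the data. In the 2-HG experiment it was 0 at a filter of 10 RPM, where Hoxb3 was not tested, and 0 under quantile normalization, the cause of which was not tested. The count of Hox genes whose change differed between the experiments was 1, and became 0 at a filter of 10 RPM, 0 under quantile normalization, 0 with the replicate block, 2 without the filter (Hoxb6 and Hoxb7) and 0 to 1 without 1 library. The replicate numbers did not pair the libraries (correlations of same-numbered libraries 0.029 to 0.071 and -0.457 to 0.057), and the replicate block kept 1 lower gene in each comparison.

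Signs turned for members near 0. Without 1 library, Hoxa6 ran from -0.02 to 0.21, Hoxa10 from -0.29 to 0.17 and Hoxb3 from -0.13 to 0.16 in 2MUT, Hoxb4 from -0.19 to 0.11 in 2-HG(+), and Hotairm1 from -0.03 to 0.14 in 2MUT and -0.19 to 0.01 in 2-HG(+). The difference of changes ran from -0.04 to 0.14 for Hoxb2. Of the fold changes of the called list genes, 195 kept and 51 lost their call with 1 library left out, and 412 kept and 34 lost it under the other alternatives, with no change of sign. Depth limits the members under 1 RPM, where 3 reads are 0.41 to 0.464 RPM in the mutant IDH2 experiment.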

Other observations

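Genes next to the Hox clusters were read as well. Evx1 and Evx2, homeobox genes at the 5′ ends of Hoxa and Hoxd, had no more than 2 reads in all in either table. In 2MUT, 3 of 13 expressed flanking genes were called lower and 0 higher (1 at an unadjusted p under 0.05, and 0 with edgeR or DESeq2), where 17.3% of all genes were called lower. These were Lnp beside Hoxd (78 ± 8.01 to 50.5 ± 2.12 RPM, SD, n = 3; log2 fold change -0.61), Cbx5 beside Hoxc (122 ± 15.2 to 87.6 ± 7.61 RPM, -0.47, lost without 2MUT replicate 2) and Atp5g3 (443 ± 39.3 to 330 ± 20.9 RPM, -0.42). In 2-HG(+), 2 of 11 were called higher and 2 lower, where 16.1% and 16.7% of all genes were. Calcoco1 fell from 179 ± 13.9 to 87.9 ± 11.7 RPM (-1.02) and Snx10 from 39.6 ± 2.84 to 30.6 ± 3.79 RPM (-0.37), while Lnp rose from 30.6 ± 2.05 to 45.5 ± 2.69 RPM (0.56) and Cbx5 from 284 ± 16.1 to 346 ± 4.96 RPM (0.29). The calls of Snx10 and Cbx5 in 2-HG(+) were lost in 9 and 10 of 17 alternatives, and Lnp and Cbx5 thus had opposite signs in the comparisons.

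Of the non-coding transcripts of the clusters, Hoxb3os and Hotairm1 were expressed, and 0 were called by limma, edgeR or DESeq2 or had an unadjusted p under 0.05. Hoxb3os, antisense to Hoxb3 and listed apart from it, with the limit on shared bases given above, had 33.4, 39.9 and 34.9 RPM in Control and 40.5, 47.4 and 44.2 RPM in 2MUT, groups that did not overlap, and differed by 0.28 on the log2 scale (adjusted p = 0.12 by limma with Benjamini-Hochberg, and 0.08 to 0.3 over the alternatives). Hotairm1, at the 3′ end of Hoxa, had 15.3 ± 1.93 and 15.9 ± 0.895 RPM in Control and 2MUT and 10.8 ± 0.975 and 10.1 ± 1.52 RPM in 2-HG(-) and 2-HG(+), with 95% intervals of the log2 fold change of -0.3 to 0.4 and -0.42 to 0.24. Tubb3, 1 of 5 neural markers, was 1.43 ± 0.228 RPM in 2-HG(-) and 5.92 ± 0.495 RPM in 2-HG(+), and was called higher (log2 fold change 1.51, limma adjusted p = 7.2e-05). The summed neural markers were 1.74 to 1.98 RPM and 5.69 to 6.53 RPM, and their part in the Hox and positional factor values was not tested.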
